A study of Mus musculus with 12 samples.

Results

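The Kruppel-like factors are zinc-finger transcription factors, and 10 of their genes (Klf1, Klf2, Klf3, Klf4, Klf6, Klf9, Klf10, Klf11, Klf13 and Klf16) were followed through erythroblast maturation in mouse bone marrow. The members were fixed by gene symbol, with no measured value in the rule, but were chosen with earlier results of these data known. Each matched 1 row among the 29838 genes of the expression table. RNA was sequenced from wild-type bone marrow erythroblasts at 4 stages, proerythroblasts (Pro), basophilic (Baso), polychromatic (Poly) and orthochromatic (Ortho) erythroblasts, with 3 libraries per stage and no treatment. The methods of the study give the animals as male C57BL/6 mice aged 8 weeks, sorted from live cells negative for CD45, CD11b and GR1 staining after bead depletion of CD45+ cells. Pro was the gate with high CD44 and low Ter119 staining, and the later stages were separated by CD44 staining and cell size. Whether the 3 libraries of a stage came from separate animals or from pools was not given, so p-values measure the spread between these libraries, which may be technical. Of the Ortho libraries, replicates 2 and 3 are called erythroblasts without a stage in the cell type label, and their titles place them in Ortho.

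Kruppel-like factors bind CACCC boxes and related GC-rich elements through zinc fingers at the C terminus, and differ in the N-terminal part that recruits partners. Klf1, also known as EKLF, is the erythroid activator of β-globin, heme synthesis and membrane skeleton genes. Klf3 is a repressor that recruits CtBP and is itself a target of Klf1 in erythroid cells. Klf2, Klf4 and Klf6 are activators known best from endothelial, lymphoid, myeloid and epithelial cells, and Klf9, Klf10, Klf11, Klf13 and Klf16 carry an element that binds the Sin3 corepressor.

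Values are FPKM, fragments scaled to transcript length and to the mapped fragments of the library, so levels of different genes are compared per length. Differences are log2 fold changes of FPKM + 1, which understate changes of low genes, and come from limma fitted across the 12994 genes that reached 1 FPKM in 3 or more libraries. All 10 members passed that filter, with at least 2.83 FPKM in every library. A member was called when the adjusted p was under 0.05 and the change was at least 2-fold. Depth cannot be read from FPKM, so the spread of the 3 libraries is the error of each value. FPKM is relative to all other RNA of a library, and in bulk samples fewer cells of a type and less RNA per cell cannot be told apart.

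Promoter windows from RefSeq on mm10 (GRCm38) were available for 8 of the 10 members. There was none for Klf10, or for Klf16, which was called lower in Ortho than in Poly and Pro. Of the 8 windows, 5 are shown, those of members called from Poly to Ortho or from Pro to Ortho. They belong to Klf1, Klf3 and Klf11, which were called lower in Ortho than in Poly, and to Klf4 and Klf6, which were called higher in Ortho than in Pro. Each is printed 5′ to 3′ on the strand of its gene and stops before the first annotated exon. The capitals mark CACCC, the box bound by Kruppel-like factors, and TGATAA or AGATAA, the sequence bound by GATA factors, on either strand. Klf1 (plus strand) is at chr8:84901732-84901927, Klf3 (plus strand) at chr5:64803271-64803387, Klf11 (plus strand) at chr12:24651121-24651273, Klf4 (minus strand) at chr4:55532476-55532725 and Klf6 (plus strand) at chr13:5861239-5861481.
Klf1: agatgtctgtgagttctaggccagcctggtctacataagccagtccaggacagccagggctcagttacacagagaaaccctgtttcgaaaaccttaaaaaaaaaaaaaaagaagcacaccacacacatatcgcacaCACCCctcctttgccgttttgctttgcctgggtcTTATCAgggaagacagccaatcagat
Klf3: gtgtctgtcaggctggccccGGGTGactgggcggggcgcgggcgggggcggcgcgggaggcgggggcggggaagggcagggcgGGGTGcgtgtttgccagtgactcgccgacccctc
Klf11: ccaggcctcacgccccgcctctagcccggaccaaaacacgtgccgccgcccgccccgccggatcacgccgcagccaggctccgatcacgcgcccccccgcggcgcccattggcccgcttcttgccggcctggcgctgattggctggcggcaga
Klf4: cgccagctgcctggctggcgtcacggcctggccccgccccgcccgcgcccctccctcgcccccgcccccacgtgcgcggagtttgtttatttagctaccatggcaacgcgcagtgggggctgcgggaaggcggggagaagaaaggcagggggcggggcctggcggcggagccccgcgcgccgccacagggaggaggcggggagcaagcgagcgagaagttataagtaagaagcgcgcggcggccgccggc
Klf6: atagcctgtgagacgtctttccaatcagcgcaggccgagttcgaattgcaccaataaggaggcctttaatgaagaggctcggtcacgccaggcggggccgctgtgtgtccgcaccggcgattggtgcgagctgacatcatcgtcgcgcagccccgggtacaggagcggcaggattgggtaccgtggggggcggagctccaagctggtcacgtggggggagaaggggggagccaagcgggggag

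Distances here are to the RefSeq start of each window. For Klf1, Klf2, Klf3, Klf6 and Klf11 that start lies inside the gene as placed by GENCODE, where the printed parts stop (196 bases printed for Klf1). In the 250 bases before the RefSeq start, the window of Klf1 was the only 1 of the 8 with a GATA sequence. It was a TGATAA on the opposite strand 80 bases before the RefSeq start, and 1 CACCC lay 114 bases before that start. TGATAA was present in 7.94% and AGATAA in 9.99% of all 32851 windows of this length, searched on both strands. CACCC was present in 52.0% of all windows. It occurred 5 times in the window of Klf3, of which 2 lie in the part printed here and the others within the gene as placed by GENCODE. It occurred once each in the windows of Klf2, Klf9 and Klf13, and not in those of Klf4, Klf6 and Klf11. GGGCGG, the GC box bound by Sp factors, was present in 32.7% of all windows and in those of Klf2, Klf3, Klf4, Klf6, Klf11 and Klf13, with 6 matches in Klf3. The GC content of the Klf1 window was 49.2%, against 59.6% to 78.4% in the other 7 and a median of 52.4% over all windows. These matches describe letters in a window and are not binding data.

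Klf1 was the most highly expressed member in every library and fell at the last step. Its gene (ENSMUSG00000054191) lies on chromosome 8 of mm10 from 84901928 to 84905291 and its transcript has 3 exons. Its FPKM was 346, 312 and 301 in Pro, 325, 351 and 342 in Baso and 284, 282 and 310 in Poly, against 60.7, 73.5 and 73.6 in Ortho. The Poly libraries lay below all Baso libraries and overlapped those of Pro, and the Ortho libraries lay far below all of them. In Pro Klf1 stood above 98.5% of the tested genes. The log2 fold change from Poly to Ortho was -2.06 (standard error 0.09, adjusted p = 2.46e-08) and from Pro to Ortho -2.19 (adjusted p = 5.11e-09). From Pro to Baso it was 0.09 (adjusted p = 0.415). In Ortho Klf1 still stood above 94.1% of the tested genes.

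**Figure D1:**
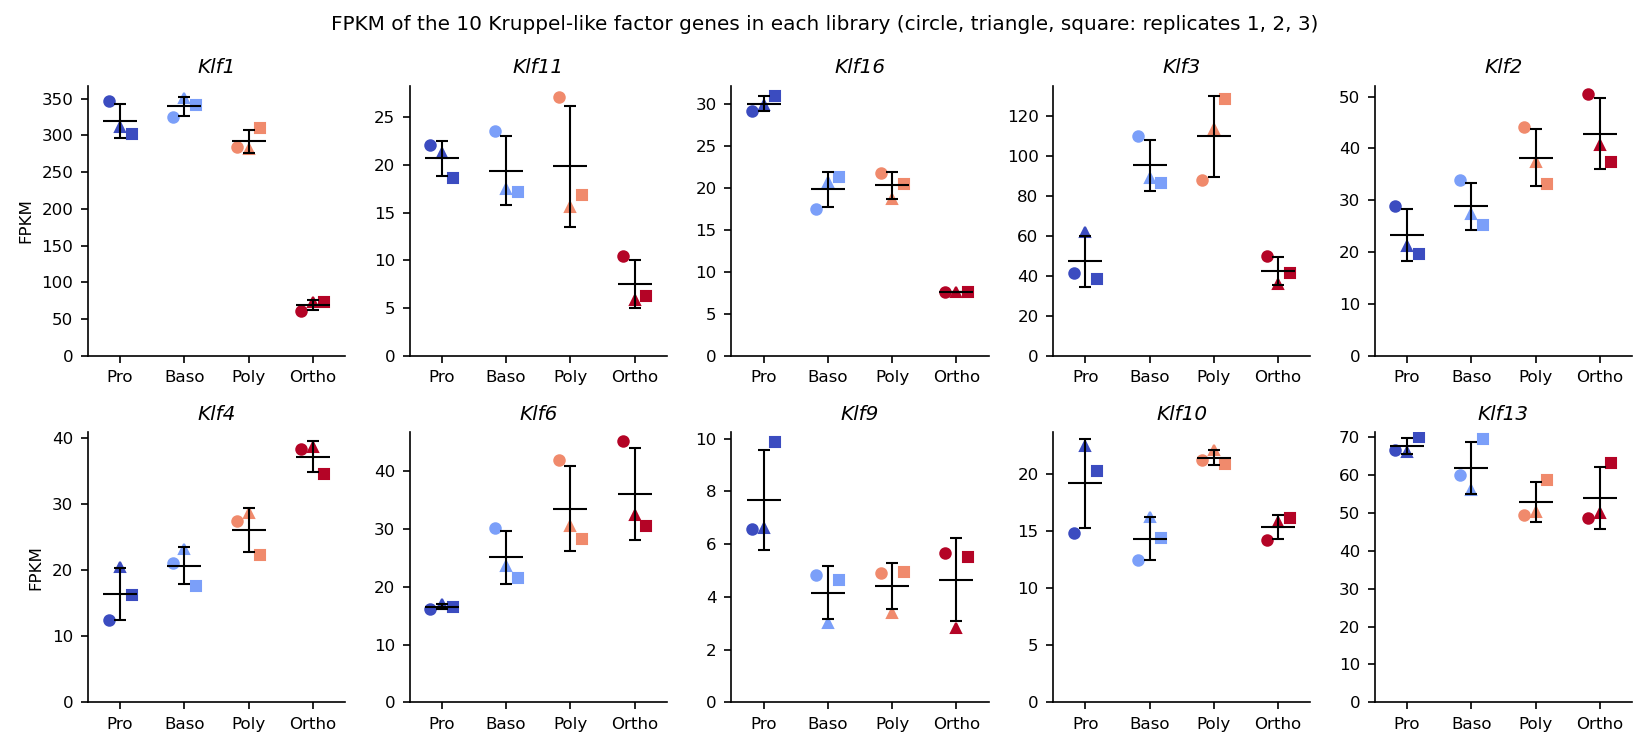
FPKM of the 10 Kruppel-like factor genes on the vertical axis of each panel, by stage on the horizontal axis, with a circle, triangle and square for replicates 1, 2 and 3 and a bar for the mean ± SD (n = 3). Klf1 lies between 282 and 351 in the first 3 stages and between 60.7 and 73.6 in Ortho, while Klf3 is highest in Baso and Poly and Klf2, Klf4 and Klf6 have their highest means in Ortho.

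Klf3, the CtBP-recruiting repressor, rose from Pro to Baso and fell from Poly to Ortho. The FPKM of this gene (ENSMUSG00000029178, chromosome 5 from 64803388 to 64832901) was 41.6, 62.1 and 38.6 in Pro, and 110, 89.3 and 86.5 in Baso. It was 88.2, 114 and 128 in Poly and 49.8, 36.1 and 41.3 in Ortho. The Baso and Poly libraries overlapped each other and lay above all Pro and Ortho libraries, which also overlapped each other. The log2 fold change was 1.02 (standard error 0.19, adjusted p = 0.000917) from Pro to Baso and -1.35 (adjusted p = 0.000215) from Poly to Ortho. Between Pro and Ortho it was -0.14 (adjusted p = 0.526). The rise to Baso was near the 2-fold limit, and it was 0.94, 0.89 and 0.91 without Pro replicate 1, Pro replicate 3 and Baso replicate 1, in each of which the adjusted p stayed under 0.05. It was 0.84 when the libraries were rescaled to the same sum of FPKM. Klf3 overlaps the antisense gene Gm20033 and the same-strand gene C230096K16Rik, and whether strand was used in counting was not stated.

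The ratio of Klf1 to Klf3 moved with these levels. It was 8.32, 5.02 and 7.80 in the Pro libraries, 2.95, 3.93 and 3.95 in Baso and 3.22, 2.48 and 2.42 in Poly, against 1.22, 2.04 and 1.78 in Ortho. The Pro values lay above those of every later library, and the Ortho values lay below those of every earlier library. This ratio within a library does not depend on the scaling of the FPKM.

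Klf11 and Klf16, both Sin3-binding members, fell with Klf1 at the last step. Klf11 (ENSMUSG00000020653, chromosome 12 from 24651274 to 24662789), a gene induced by TGF-β in other cells, had an FPKM of 22.1, 21.2 and 18.7 in Pro, 23.6, 17.4 and 17.2 in Baso and 27.1, 15.5 and 16.8 in Poly, against 10.5, 5.87 and 6.24 in Ortho. The first 3 stages overlapped, and all Ortho libraries were below them. Its log2 fold change was -1.29 from Poly to Ortho (standard error 0.23, adjusted p = 0.00107) and -1.38 from Pro to Ortho (adjusted p = 0.000175).

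Klf16 (ENSMUSG00000035397, chromosome 10 from 80567124 to 80577321, minus strand) was lower after 2 of the 3 steps. Its FPKM was 29.2, 29.9 and 31.0 in Pro, 17.5, 20.8 and 21.3 in Baso and 21.9, 18.7 and 20.5 in Poly, against 7.65, 7.60 and 7.63 in Ortho. Baso and Poly overlapped, and Pro and Ortho were separate from them and from each other. From Pro to Baso the log2 fold change was -0.58 (standard error 0.09, adjusted p = 0.000168), which is short of 2-fold. From Poly to Ortho it was -1.30 (adjusted p = 4.56e-07), and from Pro to Ortho -1.85 (adjusted p = 1.18e-08).

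Klf4 and Klf6 were called higher in Ortho than in Pro, and Klf2 was higher by less than 2-fold. Klf4 (ENSMUSG00000003032, chromosome 4 from 55527143 to 55532466, minus strand), a factor of epithelial and monocyte differentiation and one of the reprogramming factors, had an FPKM of 12.5, 20.5 and 16.2 in Pro, 21.0, 23.2 and 17.6 in Baso and 27.4, 28.6 and 22.2 in Poly, against 38.3, 38.6 and 34.4 in Ortho. Neighbouring stages overlapped up to Poly, and every Ortho library lay above every other library. Its log2 fold change was 1.16 from Pro to Ortho (standard error 0.16, adjusted p = 4.34e-05) and 0.50 from Poly to Ortho (adjusted p = 0.0381). Without Pro replicate 1 the change from Pro to Ortho was 0.99, just under 2-fold.

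Klf6 (ENSMUSG00000000078, chromosome 13 from 5861482 to 5870394), a widely expressed and stress-inducible member, had an FPKM of 16.2, 17.0 and 16.5 in Pro, 30.2, 23.7 and 21.4 in Baso and 41.9, 30.4 and 28.2 in Poly, against 45.2, 32.4 and 30.6 in Ortho. Pro was below all later libraries, and the later stages overlapped their neighbours. The log2 fold change was 0.56 from Pro to Baso (standard error 0.18, adjusted p = 0.0176) and 1.06 from Pro to Ortho (adjusted p = 0.000183). Without Ortho replicate 1, the highest of its stage, the latter was 0.89.

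Klf2 (ENSMUSG00000055148, chromosome 8 from 72319033 to 72321656), which controls quiescence and trafficking of lymphocytes and shear responses of endothelium, had an FPKM of 28.9, 21.2 and 19.6 in Pro, 34.0, 27.4 and 25.3 in Baso and 44.1, 37.4 and 33.2 in Poly, against 50.4, 40.8 and 37.3 in Ortho. Neighbouring stages overlapped, and all Poly and Ortho libraries were above all Pro libraries. The log2 fold change from Pro to Ortho was 0.86 (standard error 0.17, adjusted p = 0.000605), and it was 1.02 without Pro replicate 1.

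The remaining Sin3-binding members, Klf9, Klf10 and Klf13, stayed within 2-fold in each of the 6 comparisons between stages. Klf9 (ENSMUSG00000033863, chromosome 19), a target of glucocorticoid and thyroid hormone receptors, had the lowest mean level of the 10 members. Its FPKM was 6.57, 6.63 and 9.88 in Pro, and ranged from 3.03 to 4.85 in Baso, from 3.39 to 4.93 in Poly and from 2.83 to 5.65 in Ortho. All later libraries were below the Pro libraries, with a log2 fold change of -0.75 from Pro to Baso (standard error 0.24, adjusted p = 0.0192) and of -0.64 from Pro to Ortho (adjusted p = 0.0288). With hemoglobin genes left out these were -0.47 and -0.22, neither with an adjusted p under 0.05.

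Klf10 (ENSMUSG00000037465, chromosome 15, minus strand), known as the TGF-β-inducible early gene, differed at each step in alternating directions. Its FPKM was 14.8, 22.4 and 20.3 in Pro, 12.5, 16.2 and 14.4 in Baso and 21.2, 22.1 and 20.9 in Poly, against 14.2, 15.8 and 16.1 in Ortho. The Poly libraries were above all Baso and Ortho libraries, whereas Pro overlapped each of the other stages. The log2 fold changes of successive steps were -0.38, 0.55 and -0.46 (standard error 0.14), with adjusted p = 0.0318, 0.0267 and 0.0273. The step from Pro to Baso was -0.08 with hemoglobin genes left out.

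Klf13 (ENSMUSG00000052040, chromosome 7, minus strand), which has been described as an activator of erythroid and T cell genes, was the second or the third most abundant member by stage mean. Its FPKM was 66.6, 66.1 and 70.0 in Pro, 59.8, 56.0 and 69.5 in Baso and 49.3, 50.3 and 58.8 in Poly, against 48.6, 50.0 and 63.2 in Ortho. The Poly and Ortho libraries were below all Pro libraries. From Pro to Ortho the log2 fold change was -0.33 (standard error 0.11, adjusted p = 0.0198), which is smaller than the median fall of all genes, and the value was 0.16 without the hemoglobin genes and 0.07 after centring on the median gene. Klf13 overlaps the antisense genes Gm27252 and E030018B13Rik, so that its value is uncertain where strand was not used in counting.

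Counted over the family, the last step held most of the calls. From Pro to Baso 1 member was called higher (Klf3) and 0 lower, beside 1.82% of all tested genes called higher and 8.54% lower. By limma 5 members had an unadjusted p under 0.05 in this comparison, which 61.6% of all genes had. From Poly to Ortho 0 were called higher and 4 lower (Klf1, Klf3, Klf11 and Klf16), beside 1.05% and 4.81% of all genes. From Pro to Ortho 2 were called higher and 3 lower, beside 6.33% and 23.8%. From Pro to Poly 1 was called higher (Klf3) and 0 lower, beside 3.59% and 12.8%, and from Baso to Ortho 0 higher and 4 lower, beside 1.16% and 7.18%. These comparisons share stages, so their counts are not independent. The median log2 fold change of the members was -0.22 from Poly to Ortho, against -0.08 over all genes, and -0.31 from Pro to Ortho, against -0.42.

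From Baso to Poly limma called 0 members in either direction, beside 0.0616% of all genes higher and 0.454% lower, and 4 members had an unadjusted p under 0.05, beside 29.3% of all genes. By the adjusted p alone, 1 member (Klf10) differed in this step, beside 12.4% of all genes. Libraries of Baso, Poly and Ortho with the same replicate number deviated together. In a model of these 3 stages blocked by replicate number, 6 members had an adjusted p under 0.05 in this step, beside 22.0% of all genes. They were Klf2 (log2 fold change 0.40, adjusted p = 0.00399), Klf6 (0.40, 0.00465), Klf10 (0.55, 0.00508), Klf4 (0.32, 0.0134), Klf13 (-0.22, 0.0277) and Klf1 (-0.22, 0.048). None of these 6 reached 2-fold. The block rests on these same values, as the labels do not say what a replicate number shares. With the block over all 12 libraries, 3 members had an adjusted p under 0.05 by limma in this step, beside 1894 of 12994 genes.

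**Figure D2:**
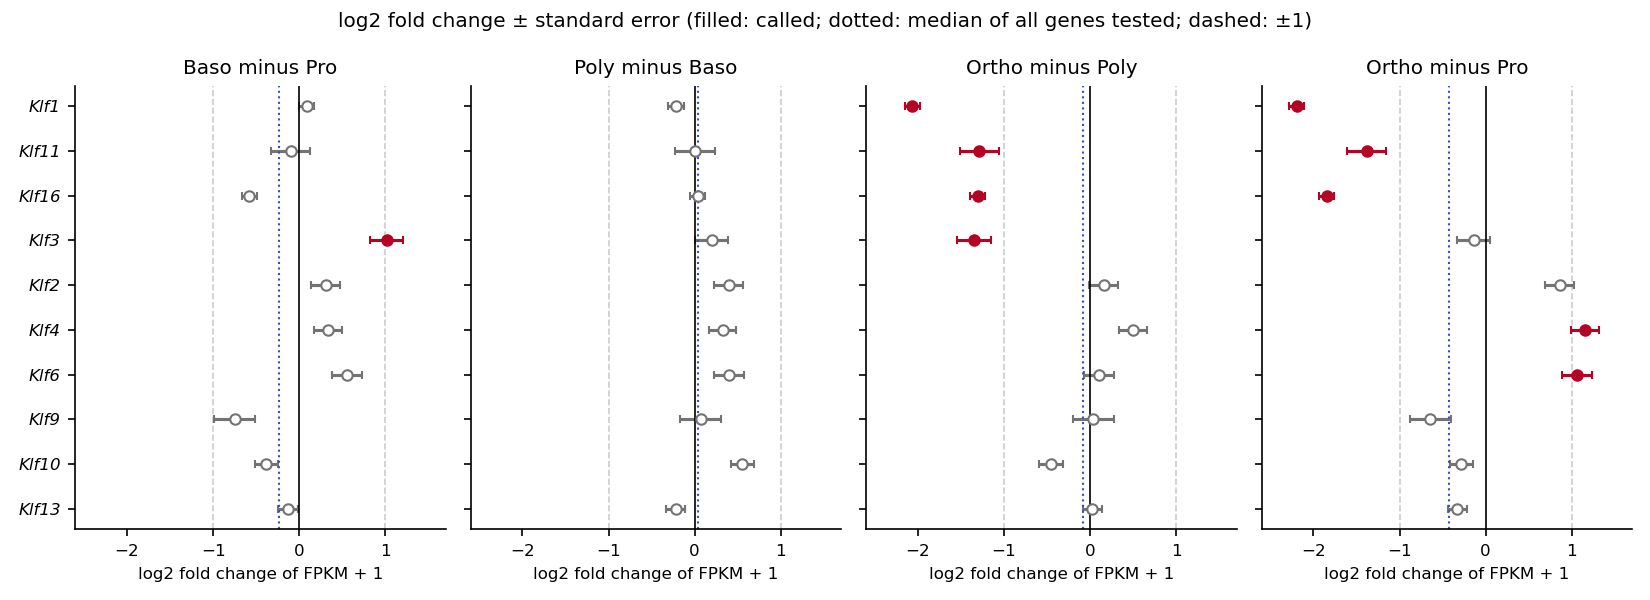
Log2 fold change of FPKM + 1 on the horizontal axis (point, with its standard error as a bar) for each of the 10 genes, in 4 comparisons between stages. Filled points are called, dashed lines mark 2-fold and the dotted line is the median of all tested genes. Klf1, Klf11, Klf16 and Klf3 are filled on the left for Ortho minus Poly, and Klf4 and Klf6 are filled on the right for Ortho minus Pro.

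As a share of the summed FPKM of the 10 members, Klf1 made up 56.2% ± 2.73 in Pro, 54.0% ± 2.69 in Baso and 47.2% ± 0.836 in Poly, against 22.0% ± 3.17 in Ortho (SD, n = 3). The sum itself was 569 ± 23.1 in Pro and 317 ± 13.8 in Ortho. Klf2, Klf4 and Klf6 together made up 9.88% ± 0.242 in Pro, 11.8% ± 1.47 in Baso and 15.9% ± 2.80 in Poly, against 36.6% ± 4.05 in Ortho. The libraries of Ortho lay below all others in the share of Klf1 and above all others in the share of these 3 genes. The 5 Sin3-binding members held 25.6% ± 1.92 in Pro, 19.0% ± 1.30 in Baso and 19.2% ± 1.08 in Poly, against 28.1% ± 2.72 in Ortho. Their share was lower in each Baso and Poly library than in any Pro or Ortho library, while Pro and Ortho overlapped. Within that group Klf13 and Klf16 moved apart, as the ratio of Klf13 to Klf16 was 2.25 ± 0.0349 in Pro and 7.07 ± 1.05 in Ortho. The ratio of Klf1 to Klf4 was 20.5 ± 6.44 in Pro, 16.7 ± 2.36 in Baso, 11.4 ± 2.22 in Poly before it reached 1.88 ± 0.277 in Ortho.

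**Figure D3:**
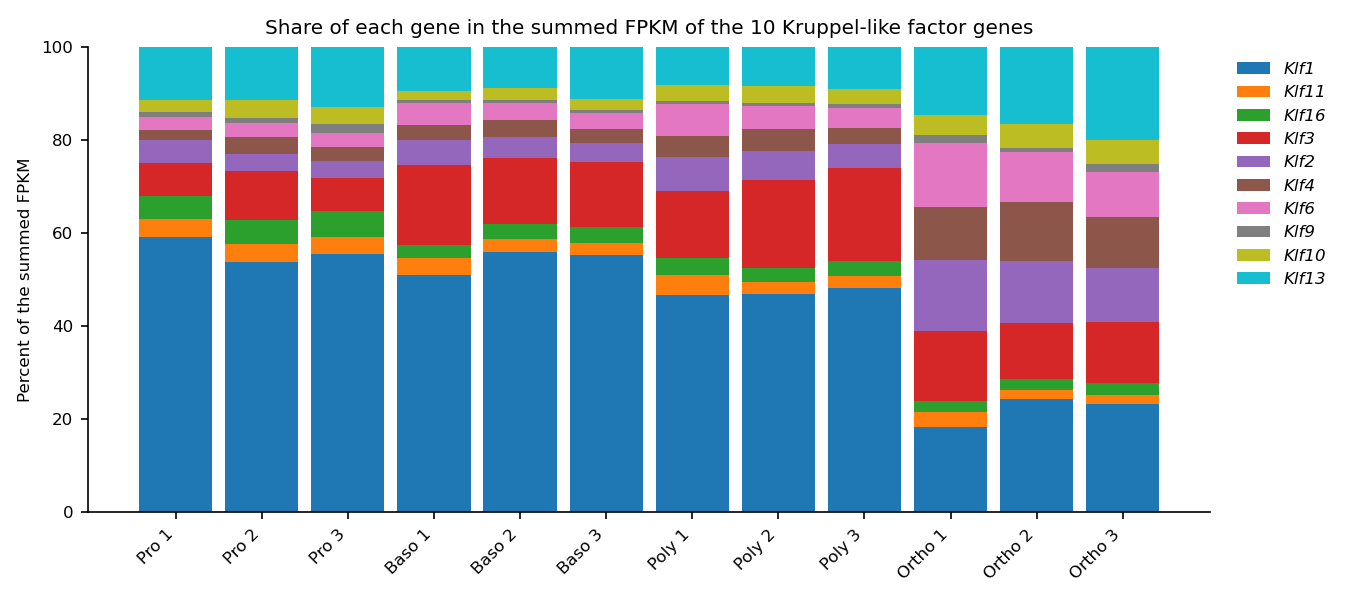
Share of each of the 10 genes in their summed FPKM, as a percentage on the vertical axis that adds up to 100, for each library on the horizontal axis. Klf1 takes between 46.6% and 59.2% in the libraries of the first 3 stages and between 18.3% and 24.2% in Ortho.

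Of the 7 other Kruppel-like factor genes, 6 had a row and 2 passed the filter. Klf5 ranged from 4.23 to 10.3 FPKM over all libraries and Klf7 from 2.36 to 4.73, and neither was called in a comparison. Klf8, a gene with a promoter driven by Klf1 and repressed by Klf3, lay between 0.367 and 1.39 FPKM. Klf12 and Klf15 did not exceed 0.198 and 0.0593 FPKM, Klf14 was listed at 0 in 11 libraries, and Klf17 was not matched to a row. The related Sp factors, which bind GC boxes, had 5 tested genes, of which 2 were called lower from Poly to Ortho, beside 4.81% of all genes. They were Sp2 (log2 fold change -1.16, adjusted p = 8.34e-06) and the widely expressed Sp3 (-1.04, adjusted p = 5.96e-06). By the adjusted p alone 4 of the 5 were lower in this step, in which 26.1% of all genes differed. From Pro to Ortho 0 of the 5 were called, beside 6.33% of all genes higher and 23.8% lower.

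Among genes described as activated by Klf1, 22 were tested, and from Pro to Baso, where Klf1 was not called, 10 were called higher and 2 lower, beside 1.82% and 8.54% of all genes. The log2 fold change of Klf1 in that step was 0.09 as deposited, 0.40 with hemoglobin genes left out and 0.38 after median centring. The 4 furthest were the β-globin genes Hbb-bs (log2 fold change 2.38) and Hbb-bt (2.08), Alas2 for the first step of heme synthesis (2.12), and Pklr for red cell pyruvate kinase, which was lower (-2.72). Hbb-bs and Hbb-bt are near-identical, so fragments may be divided between them in either way. From Poly to Ortho, where Klf1 fell, 1 of the 22 was called higher and 5 lower, beside 1.05% and 4.81% of all genes. From Pro to Ortho 7 were higher and 4 lower, beside 6.33% and 23.8%. The median of the list was 0.96 from Pro to Baso and -0.27 from Poly to Ortho, against -0.23 and -0.08 over all genes. The relation of these genes to the level of Klf1 was not tested.

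Genes described as repressed by Klf3 went in opposite directions. C1qtnf12, which encodes a secreted hormone-like protein, had an FPKM of 270 to 377 in Pro, 49.0 to 69.8 in Baso and 21.9 to 28.5 in Poly, against 12.8 to 17.9 in Ortho, with a log2 fold change of -4.32 from Pro to Ortho (adjusted p = 4.88e-09). Lgals3, which encodes galectin-3, ranged from 60.1 to 68.1 in Pro and from 134 to 156 in Ortho, with a log2 fold change of 1.20 (adjusted p = 1.64e-07). The remaining gene of this list, Klf8, was below the filter.

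Of 11 genes of corepressors that the family recruits, 6 were called lower from Pro to Ortho and 0 higher, beside 23.8% and 6.33% of all genes, with a list median of -1.09. Ctbp1, the partner of Klf3, had an FPKM of 174 to 227 in Pro and 60.0 to 76.6 in Ortho (log2 fold change -1.55, adjusted p = 9.55e-07). Its paralog Ctbp2 ranged from 6.71 to 8.10 in Pro and from 9.93 to 12.2 in Ortho and was not called. The other large changes were in Hdac2, a histone deacetylase (-1.40), the histone chaperone Rbbp7 (-1.29) and Rcor1, which joins the demethylase Kdm1a to its targets (-1.20). Of 6 coactivator genes 2 were called lower, the SWI/SNF subunit Smarcb1 (-1.07) and the acetyltransferase Kat2b (-1.01). The acetyltransferases Crebbp (0.81) and Ep300 (0.57), also on that list, were higher with adjusted p = 0.000517 and 0.000623 by limma and did not reach 2-fold. Of 11 TGF-β pathway genes, the pathway that induces Klf10 and Klf11 elsewhere, 0 were called from Pro to Ortho by limma, while 7 had an adjusted p under 0.05, 5 of them higher, beside 75.9% of all genes.

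Marker sums of monocytes, neutrophils and B cells were higher in Ortho than in Pro, as Klf2, Klf4 and Klf6 were. Of 7 tested erythroid markers 5 were called higher from Pro to Baso, beside 1.82% of all genes. They were led by Hba-a1, Alas2, Hbb-bt and Slc4a1. From Pro to Ortho 4 of the 7 were called higher and 1 lower, beside 6.33% and 23.8% of all genes. The mean of the erythroid marker Epor was 149 FPKM in Pro and 46.5 in Ortho. The summed FPKM of 10 monocyte and macrophage markers was 233 to 294 in Pro, 295 to 357 in Baso and 387 to 459 in Poly, against 483 to 570 in Ortho. Ly6c2 made up most of it, with a mean of 211 in Pro and 402.5 in Ortho, and was not called (0.93). Of its 6 tested genes 3 were called higher from Pro to Ortho, namely Ccr2 (log2 fold change 1.77), Cd68 (1.19) and Csf1r (1.11), while the macrophage genes C1qa and Mrc1 did not exceed 1.09 and 0.738 FPKM and the macrophage gene Vcam1 (-0.31) was not called. The sum of 10 neutrophil markers was 7274 to 9089.8 in Pro, 12490 to 14666 in Baso and 16092 to 19115 in Poly, against 14336 to 17781 in Ortho, so that its mean was highest in Poly. From Pro to Poly 6 of these 10 were called higher, beside 3.59% of all genes. They were led by Mmp8 (1.40), S100a9 (1.35), Lcn2 (1.23) and S100a8 (1.21). The sum of 8 B cell markers was 63.1 to 110.2 in Pro and 159.8 to 206 in Ortho, and 6 of the 8 were called higher, led by Cd79a (1.41), Cd79b (1.37), Pax5 (1.21) and Ebf1 (1.14). The gate negative for CD45, CD11b and GR1 is meant to remove such cells, and their part in the rise of Klf2, Klf4 and Klf6 was not tested.

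Values of other lists follow, and their relation to the rise of Klf2, Klf4 and Klf6 was also not tested. Genes of proteins stained for exclusion in the sort were present, with Ptprc, which encodes CD45, at 23.6 to 30.3 FPKM in Pro and 50.5 to 63.9 in Ortho (log2 fold change 1.07). Of the 2 rows of Itgam, which encodes CD11b, 1 (ENSMUSG00000108596) was called higher (1.68). The other (ENSMUSG00000030786) was not called, at 14.2 to 27.7 FPKM in Pro and 22.8 to 53.4 in Ortho, which overlap. Of the known leukocyte targets of Klf2, Itgb7 was called higher from Pro to Ortho (1.02), and S1pr1 (0.88) was not called. Of the genes that mark early progenitors, Gata2 was called higher (1.02), and Cd34 (0.89), Myb (0.37) and Kit (-0.28) were not called in either direction. The T cell genes Cd3e and Cd3g were listed at 0 in most libraries and did not exceed 0.0534 FPKM, and the only tested T and NK gene, Nkg7 (0.56), was not called from Pro to Ortho. The endothelial genes Kdr, Emcn and Tek did not exceed 0.165 FPKM, and the tested endothelial genes Pecam1 (0.91, adjusted p = 4.72e-06 by limma) and Cdh5 (0.74, adjusted p = 0.00101) were higher and did not reach 2-fold. The mean of the endothelial sum was 7.67 FPKM in Pro and 15.6 in Ortho. Pecam1 made up most of it, with a mean of 6.65 in Pro and 13.4 in Ortho. Of 7 megakaryocyte and platelet genes 4 were called lower from Pro to Ortho, beside 23.8% of all genes, namely Ppbp (-2.52), Gp9 (-1.96), Pf4 (-1.79) and Gp1ba (-1.01).

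**Figure D4:**
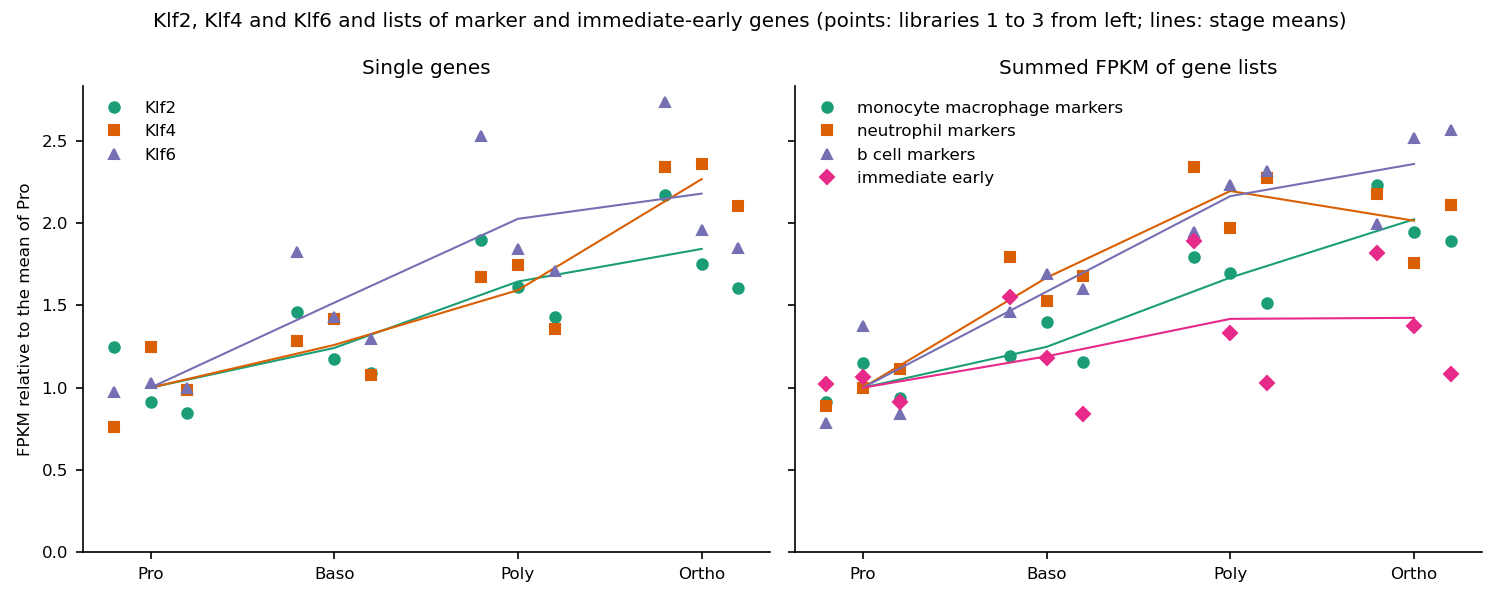
FPKM relative to the mean of Pro, on the vertical axis, for Klf2, Klf4 and Klf6 (left) and for the summed FPKM of monocyte and macrophage, neutrophil and B cell markers and of immediate-early genes (right), by stage on the horizontal axis. Points are libraries 1 to 3 from left to right and lines join stage means. In Ortho the means of Klf2, Klf4 and Klf6 are 1.84, 2.27 and 2.18, and those of the 3 marker lists are 2.02, 2.01 and 2.36.

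Klf2, Klf6 and Klf11 differed between replicates in the same way in 3 stages. Replicate 1 was the highest of its stage in Baso, Poly and Ortho for these 3 of the 10 members, and for 1303 of the 12994 tested genes (10.03%). In Ortho the highest library exceeded the lowest 1.35-fold for Klf2, 1.48-fold for Klf6 and 1.78-fold for Klf11, and 1.12-fold for Klf4, in which replicate 2 was highest. All 13 immediate-early genes, which are induced rapidly by growth signals and stress, had the same order. Among them Atf3 was at 1.21 to 15.0 FPKM and Fosb at 4.09 to 20.9 in Ortho. In comparisons between stages 1 of the 13 was called from Pro to Baso, Btg2 (log2 fold change 1.07), beside 1.82% of all genes called higher. From Pro to Ortho 0 were called by limma, with 3 at an adjusted p under 0.05, beside 75.9% of all genes. Their part in the order of the replicates was not tested.

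The calls of Klf2, Klf4, Klf6 and Klf11 from Pro to Ortho depended on the scaling of the libraries, in which hemoglobin RNA takes a growing part. The summed FPKM of 10 hemoglobin genes was 36554 to 56054.6 in Pro and 309636 to 363580 in Ortho, and 6 of 7 tested were called higher from Pro to Baso, beside 1.82% of all genes. They were led by Hbb-bs, Hba-a2 (2.28), Hba-a1 (2.27) and Hbq1b (2.09). With hemoglobin genes left out and the libraries rescaled, the median of all genes from Pro to Ortho was -0.03 in place of -0.42. In that scaling 3 members were called higher and 2 lower, beside 15.3% and 8.88% of all genes, since Klf2 passed 2-fold (1.34) and Klf11 did not (-0.93). After rescaling to the same sum, 0 were higher and 3 lower, beside 2.47% and 37.4%, with Klf4 at 0.80 and Klf6 at 0.70. The falls of Klf1, Klf11 and Klf16 and the rises of Klf2, Klf4 and Klf6 from Pro to Ortho kept their sign in all 4 scalings, whereas Klf3, Klf10 and Klf13 did not. From Poly to Ortho, Klf1, Klf3, Klf11 and Klf16 were called lower in all 4 scalings.

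**Figure D5:**
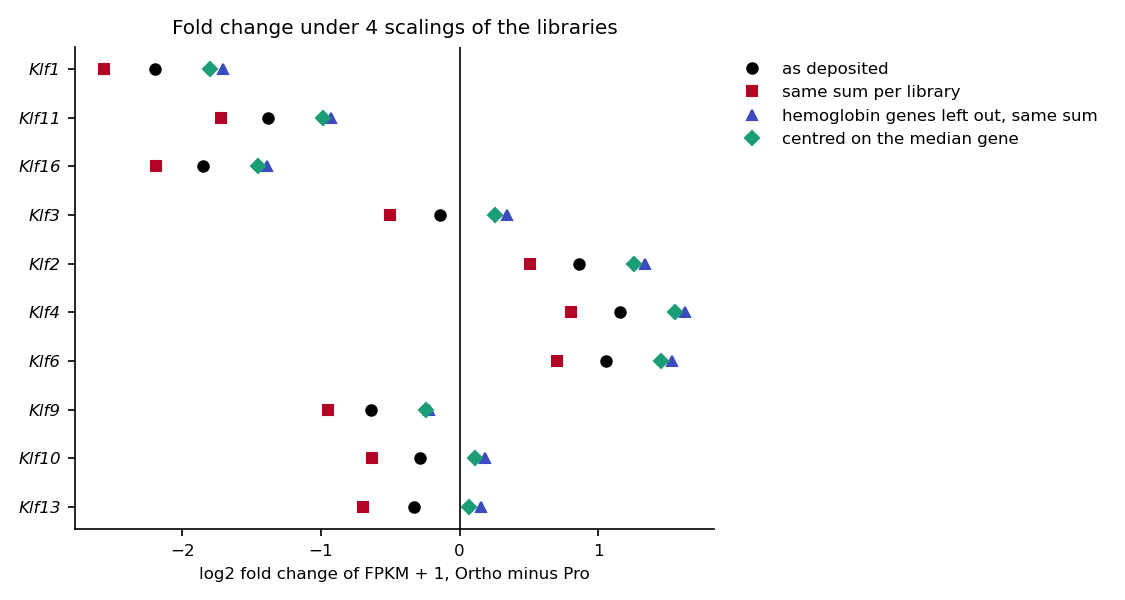
Log2 fold change of FPKM + 1 from Pro to Ortho on the horizontal axis for each gene, with the libraries as deposited (circle), rescaled to the same sum (square), rescaled without hemoglobin genes (triangle) or centred on the median gene (diamond). Klf1 stays between -2.56 and -1.70 and Klf4 between 0.80 and 1.63, and Klf3, Klf10 and Klf13 fall on either side of 0.

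The genes most like each member over the 12 libraries, by Pearson correlation of log2(FPKM + 1), describe the shape of each profile and share the 4 stages. For Klf1 they were Kif20a, a mitotic kinesin (0.996), Tmx1 (0.995) and Gclc, which makes glutathione (0.994). For Klf16 they were Vps35 (0.994), Smarca5 (0.993) and Prelid3b (0.992), and for Klf11 Limd1 (0.980), Zfp367 (0.954) and Dsn1, a kinetochore subunit (0.952). All of these had their lowest mean in Ortho. The rise and fall of Klf3 was most like that of Kctd9 (0.965), Map3k1 (0.961) and Slc25a24 (0.958).

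The members with a rising profile were matched by other rising genes. Klf4 was most like Zfp385a (0.985), Ly86, a monocyte and B cell surface protein (0.984), and Tagln2 (0.973). Klf2 was most like the interferon-induced gene Mx1 (0.981), Acox3 (0.974) and Sp140 (0.969), and Klf6 most like the antiproliferative gene Btg1 (0.985), Arhgef3 (0.985) and Hlx (0.981). The matches of Klf9, Klf10 and Klf13 had lower correlations. They were Slx1b (0.922), Xpr1 (0.910) and Ccdc66 (0.907) for Klf9, Dynlt1c (0.899), Tagap1 (0.897) and Skp2 (0.870) for Klf10, and Desi1 (0.886), Ambra1 (0.878) and Crbn (0.876) for Klf13.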

How the data were processed

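RNA-seq of 12 libraries was used, 3 for each of Pro, Baso, Poly and Ortho, grouped by the sample titles. The authors trimmed reads with Cutadapt and Trimmomatic, aligned them to mm10 with Hisat2, processed them with Samtools, counted them with FeatureCounts and deposited FPKM values per gene and library. The annotation release, tool versions and use of strand were not given in the sources used here. The labels name Trizol and NEBNext Ultra and the methods name Geek lysis and KAPA Hyper Prep, and which applies was not resolved. All libraries differed from each other. The FPKM of a library summed to 505624 to 691033, which is not a depth. Depth is unknown, and no counting error is given. The table held 29839 rows, of which 1 repeated an identifier and was left out.

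Stages were compared by limma 3.58.1 (R 4.3.3), run on log2(FPKM + 1) values with a variance trend, all 12 libraries in one model (8 residual degrees of freedom) and two-sided p-values adjusted by the Benjamini-Hochberg method over 12994 genes. The DESeq2 of the study needs counts and was not used. With 3 libraries a stage, the smallest p of an exact permutation test between stages is 0.1. The model was tested on simulated data with independent normal errors and changes added in Ortho. Those data held no deviation shared by replicate number and no shift of all genes, so the test does not cover these. Positions are from GENCODE M21 and promoter windows from RefSeq on GRCm38. Motifs and figures were made with Python 3.11.15. Named genes were all members, the 3 genes most correlated with each, and from each list up to 4 genes called in the comparison with most calls, all genes of lists of up to 3 and the other Klf genes. A gene that this rule would name is not reported here. Genes outside this rule (Kit, Myb, Cd34, Ctbp2, Kdm1a, Cd3e, Cd3g, C1qa, Mrc1, Kdr, Emcn, Tek, Pecam1, Cdh5, Nkg7, Ly6c2, Vcam1, Crebbp, Ep300, Epor, Atf3 and Fosb) were named after their values were seen. The members and lists were chosen with earlier results of these data known.

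The replicate numbers were checked by the correlation of deviations from stage means, which ran from 0.182 to 0.238 for Baso with Poly, from 0.156 to 0.264 for Baso with Ortho, from 0.156 to 0.319 for Poly with Ortho, and from 0.00524 to 0.0968 for Pro with a later stage. Correlations with another number did not exceed 0.0287 among Baso, Poly and Ortho. For Pro they exceeded the same number with Baso in replicate 2 (0.0270 against 0.00524) and with Ortho in replicate 3 (0.0499 against 0.0476). In the other comparisons of Pro the same number was higher. The numbers therefore pair Baso, Poly and Ortho on the values alone, as the labels do not say what a number shares. A pairing of Pro was less clear. The alternatives tried were pseudocounts of 0.1 and 5, no filter, a mean FPKM of 5 or more, rescaling to equal sums (also after removal of hemoglobin genes), median centring, no variance trend, only the 2 stages compared, the replicate block, the adjusted p alone, and leaving out each library.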

Additional observations from a re-analysis of the deposited data

How the results depend on the processing

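The number of members called from Poly to Ortho was 4 in every alternative except the adjusted p alone, where it was 6, beside 26.1% of all genes, and a pseudocount of 5, where it was 3 and Klf11 stood at -0.98, and from Baso to Poly it was 0 with or without the replicate block. With the pseudocount of 5, 81 of all 12994 genes were called higher and 358 lower from Poly to Ortho, against 137 and 625 in the main fit. From Pro to Baso the count of 1 member became 0 with a pseudocount of 5 and with libraries rescaled to the same sum, and was 0 to 1 when single libraries were left out. Over all genes, 237 were called higher and 1110 lower in this comparison in the main fit. These were 145 and 453 with the pseudocount of 5, and 175 and 1822 with the same sum. Without single libraries they were 216 to 285 and 928 to 1345. From Pro to Ortho the count of 5 members became 3 with a pseudocount of 5, which left out Klf4 and Klf6, and 3 with the same sum, and was 4 to 5 when single libraries were left out. Over all genes, 823 were called higher and 3092 lower in this comparison in the main fit. These were 350 and 1738 with the pseudocount of 5, and 321 and 4857 with the same sum. Without single libraries they were 720 to 970 and 3005 to 3249. By the adjusted p alone the counts of members were 5 from Pro to Baso, 1 from Baso to Poly and 8 from Pro to Ortho, beside 57.0%, 12.4% and 75.9% of all genes. The replicate block, in all libraries or in Baso, Poly and Ortho, changed no call of a member, and the adjusted p-values it moved from Baso to Poly are given with that comparison. With the block over all libraries, 7 members had an adjusted p under 0.05 from Pro to Baso and 9 from Pro to Ortho. Beside them were 7649 and 10004 of 12994 genes. From Baso to Ortho there were 8, against 7 without it. The block in 3 stages gave 7 from Poly to Ortho, beside 4002 genes, with Klf2 (0.16) at an adjusted p of 0.0447 by limma.

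Changes of direction were confined to differences of single members that were not called. With hemoglobin genes left out, and after median centring, the log2 fold change became 0.22 and 0.12 for Klf1 from Pro to Poly, 0.18 and 0.11 for Klf10, 0.16 and 0.067 for Klf13 and 0.34 and 0.26 for Klf3 from Pro to Ortho, 0.20 and 0.20 for Klf11 and 0.18 and 0.16 for Klf13 from Pro to Baso, and 0.24 and 0.15 for Klf11 from Pro to Poly. Of these only Klf13 from Pro to Ortho had an adjusted p under 0.05 in the values as deposited. Median centring also gave -0.045 for Klf11 and -0.013 for Klf16 from Baso to Poly. The same sum gave -0.092 for Klf1 from Pro to Baso, -0.080 for Klf10 and -0.044 for Klf9 from Baso to Ortho, -0.00075 for Klf10 from Pro to Poly, and -0.16 for Klf13, -0.026 for Klf2, -0.082 for Klf6 and -0.11 for Klf9 from Poly to Ortho. Without single libraries the range was -0.27 to 0.067 for Klf3 from Pro to Ortho, -0.069 to 0.27 for Klf6, -0.11 to 0.29 for Klf9 and -0.093 to 0.10 for Klf13 from Poly to Ortho, -0.063 to 0.37 for Klf9 from Baso to Ortho, -0.098 to 0.22 for Klf9, -0.23 to 0.15 for Klf11 and -0.049 to 0.093 for Klf16 from Baso to Poly, and -0.33 to 0.051 for Klf11 from Pro to Poly. Scaling moves all genes together by construction, and the cause of the other changes was not tested.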
